A study of Rattus norvegicus with 180 samples.

Results

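The 7 microRNAs (miRNAs) rno-miR-370, rno-miR-1224, rno-miR-328a*, rno-miR-3584-5p, rno-miR-652*, rno-miR-139-3p and rno-miR-188 were chosen by their measured signals, of the 717 miRNAs of a rat array, for a large gap between pancreas and the next organ. Their level in pancreas is therefore given below as a description, without a test. The data were 1-color arrays of total RNA from male Sprague-Dawley rats aged 10 weeks. Pancreas and 54 other organs were taken from rats 4, 5 and 6, which were perfused with saline before collection, and liver, kidney, lung, heart atrium and heart interventricular septum were also taken from rats 1, 2 and 3, which were not perfused. This gave 180 arrays in all, 15 of them without perfusion, with 3 arrays, 1 per rat, for each organ and condition. Unless perfusion is named, the values below are those of perfused rats, and the other organs are the 54 besides pancreas with 3 arrays each. Pancreas was taken from perfused rats alone. In bulk tissue, fewer cells of a type and less RNA per cell cannot be told apart.

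A miRNA is a short RNA that guides silencing proteins to messenger RNAs, mainly through its seed, the bases 2 to 8. Its precursor folds into a hairpin, and either arm of the hairpin can give a mature miRNA. The arm that is usually kept is named without a mark, and the arm that is usually degraded carried a star in older names, as in miR-328a* and miR-652*. In pancreas most cells are acinar cells, which make digestive enzymes, and miR-216a and miR-217 are the usual acinar miRNAs.

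The mature sequences are shown because the choice of members did not use them, and because the members can be set against the other arm of the same hairpin. They were read from RefSeq on the build GRCr8 for 6 members, matched by name with miR-370 as miR-370-3p, miR-652* as miR-652-5p and miR-188 as miR-188-5p, and written 5′ to 3′ with the seed in capitals. miR-328a* was not matched.
rno-miR-370: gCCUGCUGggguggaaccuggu
rno-miR-1224: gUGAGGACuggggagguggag
rno-miR-3584-5p: gGGAGGAGuccaggaggc
rno-miR-652*: aCAACCCUaggagggggugccau
rno-miR-139-3p: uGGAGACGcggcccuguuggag
rno-miR-188: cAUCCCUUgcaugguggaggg
For comparison, the other arms of 5 of these hairpins, which were also on the array, are given in the same way.
rno-miR-370*: cAGGUCACgucucugcaguuacac
rno-miR-3584-3p: gCCCGCAUcucuggauccc
rno-miR-652: aAUGGCGCcacuaggguugug
rno-miR-139-5p: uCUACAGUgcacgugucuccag
rno-miR-188*: cUCCCACAugcaggguuugc

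The 6 matched members had 6 different seeds, and none of these seeds (0 each) was found in another of the 693 mature miRNAs of RefSeq. Their share of guanine ran from 34.8% in miR-652* to 61.9% in miR-1224, with a median of 45.5%, against a median of 23.8% over the 693 mature miRNAs. In the 5 other arms it ran from 20.8% to 38.1%, with a median of 22.7%. The miR-652 hairpin was the 1 pair in which the member (34.8%) had a lower share than the other arm (38.1%). The letters GGAG, a motif chosen after the sequences were seen and searched on the miRNA strand alone, stood in 5 of the 6 members, in 0 of the 5 other arms and in 56 of the 693 mature miRNAs (8.08%). miR-370 was the member without it. The letters GGG, also counted, stood in 5 of the 6 members, in 2 of the 5 other arms and in 173 of the 693 (25.0%).

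The hairpins lay on 4 chromosomes of GRCr8. The hairpin of miR-370 (chr6:134354491-134354569, plus strand) belongs to the imprinted Dlk1-Dio3 cluster. That of miR-1224 (chr11:93811291-93811375, minus strand) lay within the span of Vwa5b2 and that of miR-3584 (chr1:256727531-256727611, minus strand) within the span of Itprip. The miR-139 hairpin (chr1:165290859-165290926, plus strand) lay within Pde2a, which encodes a phosphodiesterase. The miR-652 hairpin (chrX:111140079-111140159, plus strand) lay within Tmem164. The miR-188 hairpin (chrX:17919585-17919664, plus strand) lay within Clcn5, which encodes a chloride/proton exchanger.

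Scaled and unscaled signals were both used, because the pancreas arrays stood apart in the reference level used for scaling. Their summed signal, at 71870 to 90051, lay within the range of the other arrays (24632 to 302643). An array's reference level was the 75th percentile of its signal over the 37 miRNAs detected on all 180 arrays. It was 121, 90.5 and 68.0 in the pancreas of rats 4, 5 and 6, against 336 to 6343 on the arrays of the other organs. Scaling to a common reference level therefore multiplied the pancreas arrays by 17.5, 23.4 and 31.2 and the others by 0.334 to 6.30. On the unscaled signals the median log2 difference of these 37 miRNAs, pancreas minus the mean of the other 54 organs, was -3.28, and miR-1224 was the 1 member among the 37. Over the 345 miRNAs tested in pancreas, the median log2 difference was -0.10 scaled and -0.84 unscaled. A pair of control spots, dmr_3 and dmr_6, was taken as a level that does not depend on the sample, which the files do not state. On the pancreas arrays these spots, at 9609 to 12325, lay within the range of the other arrays, 8459 to 13070. The pancreas arrays detected 102, 108 and 86 miRNAs, against 102 to 244 in other organs. They lay on 3 slides and were scanned on 3 days, 1 array on each. The part of the low reference level in the results below was not tested, and the gap of each member is given on both scales.

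The tissue label was checked against marker miRNAs. The 3 acinar miRNAs listed, miR-216a (unscaled signals of 311, 252 and 192 in rats 4, 5 and 6), miR-217 (199, 144 and 99.2) and miR-216b, on the array as miR-216b-5p (35.8, 24.0 and 20.5), were highest in pancreas of the 55 organs on both scales. miR-216b-5p was detected on 2 of the 3 pancreas arrays and the other two on all 3. Of 2 endocrine miRNAs, miR-375 was detected on all 3 arrays and miR-7a on 2. In the order of the 55 organs, pancreas was at place 14 unscaled and 1 scaled for miR-375. For miR-7a it was at place 51 unscaled and 13 scaled. Of the 12 markers listed for leukocytes, blood, intestine, liver and muscle, miR-223 was the 1 detected on all 3 arrays, at 27.8, 36.9 and 28.2, the lowest of the 55 organs on the unscaled scale and the fourth of the order when scaled.

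All 7 members were detected on 3 of 3 pancreas arrays. By mean log2 signal, pancreas was the highest of the 55 organs for all 7 on both scales, a count that the choice of members fixes. For comparison, of the 82 miRNAs detected on all 3 pancreas arrays, pancreas was the highest organ for 47 scaled (57.3%) and 21 unscaled (25.6%). The median gap to the next organ was 5.65 log2 units for the members and 0.80 for the 82 when scaled, and 2.27 and -3.32 when not.

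**Figure D1:**
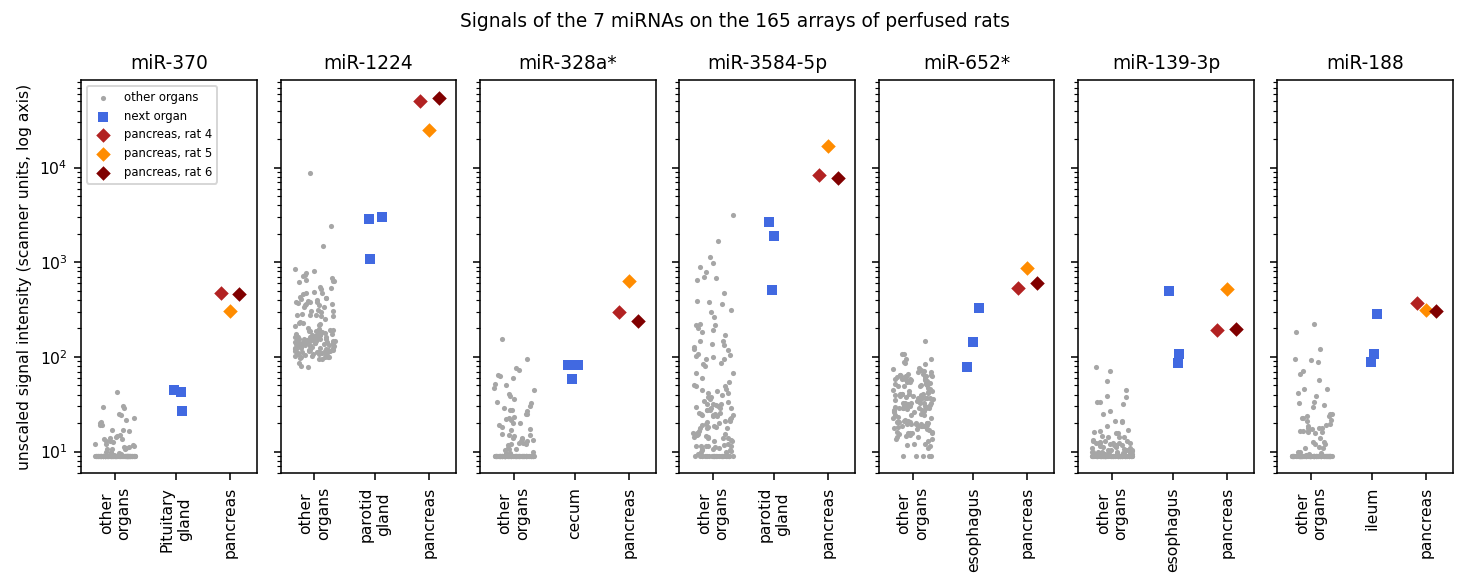
Unscaled signal intensity (scanner units, log axis) of each of the 7 miRNAs on the arrays of perfused rats, with values under the floor of 9.07 set to it. Grey points are arrays of 53 organs, blue squares the 3 arrays of the organ next below pancreas, and diamonds the pancreas of rats 4, 5 and 6, which lie above all other arrays except for miR-139-3p, where 1 esophagus array lies at 500.

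miR-1224 is spliced from a short intron rather than cut from a long primary transcript. Its unscaled signal in pancreas was 50168 in rat 4, 25183 in rat 5 and 54222 in rat 6. It was detected on all 180 arrays, and in the other organs its signal ran from 78.4 to 8834 with a median of 161. Every pancreas array lay above every other array. The next organ was parotid gland, with 1075, 2994 and 2840, so that pancreas was 19.6-fold higher unscaled (4.29 log2 units) and 130-fold higher scaled (7.02 log2 units). The single highest array outside pancreas was aorta of rat 6, at 8834, while the lowest of the 3 aorta arrays was at 153. This array was the highest of the 3 for all 7 members, with 42.3 for miR-370, 94.3 for miR-328a* and 71.7 for miR-188, each at the floor of 9.07 in rats 4 and 5, and 64.3 for miR-652* against 20.0 and 19.4. It detected 6 members and the others 3 each. Its reference level was 2879, against 5251 and 5099. For miR-1224, rat 6 was also far above rats 4 and 5 in spinal cord pectoral (2396 against 144.5 and 153.9). The same held in brown adipose tissue (723 against 109.9 and 102.5) and Pituitary gland (680 against 152.4 and 160.3). In ileum it was rat 4 that was highest (1478 against 730.7 and 431.4). miR-1224 held 55.7%, 35.0% and 63.6% of the summed signal of the 3 pancreas arrays and was the brightest of the 717 miRNAs on each. Its median rank elsewhere was 59 and its best was 2.

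miR-3584-5p had unscaled signals of 8330, 17081 and 7746 in pancreas. It was detected on 122 arrays of other organs and on all 3 arrays of 33 other organs. Parotid gland again came next, with 508, 2646 and 1873, a gap of 7.59-fold unscaled (2.92 log2 units) and 50.4-fold scaled (5.65 log2 units). The rats spread widely within some organs, but not in lymph node - cervical (37.3 to 41.9) or bladder (20.9 to 27.8). In prostate other, for example, the signals ran from 54.1 to 3146, and in esophagus from 201 to 1685. It held 9.25%, 23.8% and 9.08% of the summed signal in pancreas. Together the 7 members held 67.0%, 62.5% and 74.8%, against 0.0689% to 19.6% on the arrays of other organs, of which a parotid gland array was the highest. Without the 7 members the summed signal of the pancreas arrays was 29677, 26968 and 21538, against 19808 to 302366 elsewhere.

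miR-370 had unscaled signals of 478, 308 and 461 in pancreas. It was detected on 36 arrays of other organs, among them all 3 arrays of 5 organs, and no organ but pancreas held an array above 44.5. On the unscaled scale Pituitary gland came next, with 42.9, 44.5 and 26.9, a gap of 11.0-fold (3.46 log2 units), and cerebrum Thalamus followed with 22.4, 28.8 and 14.4. On the scaled scale parotid gland came next instead, with 22.2, 85.5 and 106, and the gap was 163-fold (7.35 log2 units). A further design for the same miRNA, rno-miR-370_v15.0, was detected on the 3 pancreas arrays (24.8, 17.9 and 30.7) and on 0 arrays of other organs.

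miR-652* had unscaled signals of 539, 868 and 606 in pancreas and was detected on 153 arrays of other organs, where its median was 32.1. Esophagus came next with 330, 145 and 77.4, a gap of 4.25-fold (2.09 log2 units). Scaled, duodenum came next, with 371, 309 and 326, and the gap was 45.9-fold (5.52 log2 units). The pancreas arrays lay above every other array on both scales.

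miR-328a* had unscaled signals of 297.5, 630 and 237 in pancreas and was detected on 56 arrays of other organs. The organs next in order were parts of the gut, with cecum at 82.1, 58.6 and 83.0 and ileum at 155.5, 59.8 and 40.3. These 2 organs did not differ beyond the spread of their rats. The gap was 4.81-fold unscaled to cecum (2.27 log2 units) and 55.5-fold scaled to ileum (5.79 log2 units).

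miR-188 had the closest pancreas arrays of the 7, with unscaled signals of 367, 310 and 309. It was detected on 49 arrays of other organs, in gut organs above all: ileum had 159 ± 106 (SD, n = 3), cecum 157 ± 81.5, colon 101 ± 18.8 and stomach glandular 64.8 ± 27.9. One ileum array, of rat 4, reached 281.5. The gap to ileum was 2.36-fold unscaled (1.24 log2 units) and 26.7-fold scaled (4.74 log2 units), the smallest scaled gap of the 7.

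miR-139-3p had unscaled signals of 194, 522 and 195 in pancreas and was detected on 28 arrays of other organs. Esophagus came next with 500, 108 and 85.2, so that 1 esophagus array lay above the pancreas of rats 4 and 6. Unscaled, the gap was 1.63-fold (0.70 log2 units) and the groups overlapped. Without rat 5 it was -0.086 log2 units, with esophagus above pancreas, in an alternative chosen after seeing the data. Scaled, the 3 esophagus arrays lay at 517, 91.8 and 186, below every pancreas array (3402, 12219 and 6070), and the gap was 30.6-fold (4.93 log2 units).

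Beyond pancreas the order of the organs was mostly unresolved. With the 55 organs ordered by mean log2 unscaled signal, 53 of the 54 pairs of neighbours overlapped for each of the 7 members. Neighbours that both lay at the floor count as overlapping here. The 1 pair without overlap was pancreas and the next organ for 6 members, which the choice of members largely fixes. The same share over all miRNAs was not counted. For miR-139-3p it was esophagus and parotid gland. In many organs some members were not detected on any array, which held for 32 organs with miR-370, 31 with miR-188, 33 with miR-139-3p and 27 with miR-328a*.

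**Figure D2:**
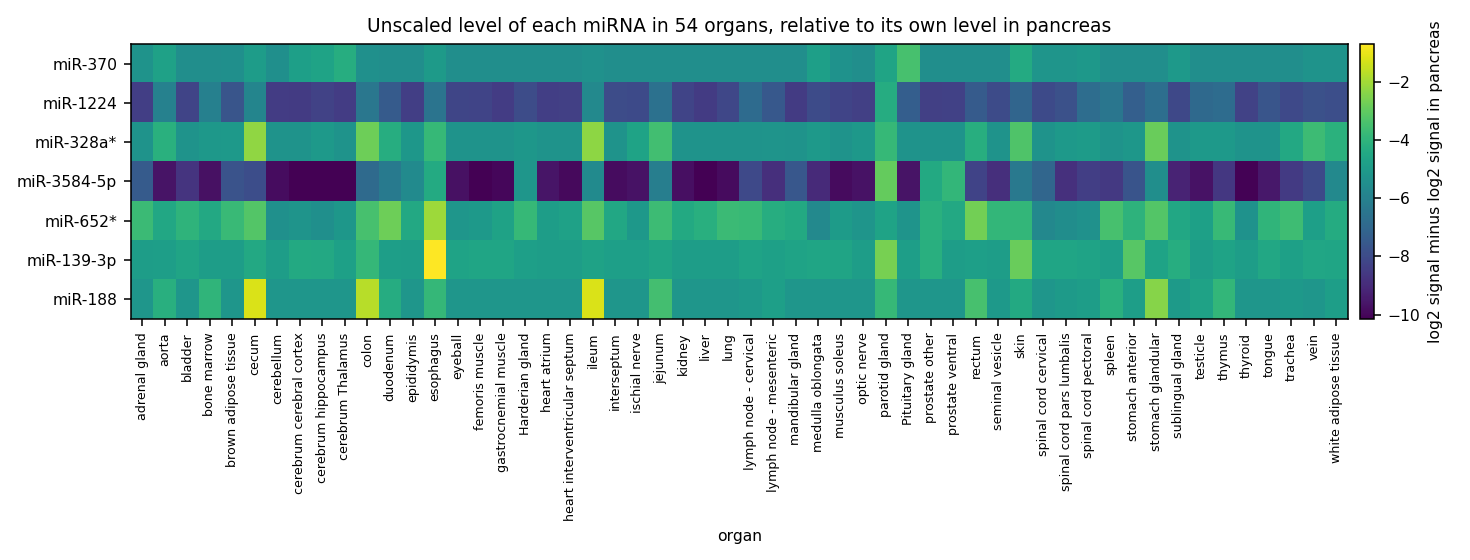
Unscaled level of each miRNA in the 54 organs other than pancreas, as mean log2 signal over 3 arrays minus the same in pancreas (color), so that each row is on its own scale. Rows differ in the organs nearest to pancreas: parotid gland for miR-1224 and miR-3584-5p, gut organs for miR-328a* and miR-188, and esophagus for miR-652* and miR-139-3p.

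The members chosen were not the 7 with the largest gaps. The next organ of each member was detected on all 3 of its arrays. Among the 82 miRNAs detected on all pancreas arrays, miR-216a had a gap of 8.06 log2 units scaled and 3.27 unscaled, and miR-217 one of 7.97 and 3.37, each above Pituitary gland, and miR-125a-3p had 5.40 and 2.67 above parotid gland. In each of these 3 cases the next organ was detected on 2 of 3 arrays. They lay above the scaled gap of miR-188 (4.74). For miR-874 the next organ was detected on 1 of 3 arrays, and for miR-666, miR-493, miR-370_v15.0 and miR-134, when scaled, on 0 of 3, so no gap is given. Just below miR-188 was miR-494_v15.0 (4.61 scaled and 1.88 unscaled), with the next organ detected on all 3 arrays. Next came miR-1188-5p, whose next organ was detected on 1 array. On the unscaled signals miR-1224 (4.29) had the largest gap of those miRNAs of the 82 whose next organ was detected on 2 or 3 arrays, followed by miR-370 (3.46), miR-217 and miR-216a.

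The size of the gap moved with the scaling of the arrays and with the background correction. It stayed above 0 for all 7 members under the 6 scalings tried, which the choice of members largely fixes. With control spots in place of the 37 miRNAs the gaps ran from 0.58 (miR-139-3p) to 4.34 log2 units (miR-1224), close to those without scaling. In the authors' own table of normalized signals they ran from 2.71 (miR-139-3p) to 5.64 (miR-370). Quantile normalization gave 1.73 for miR-1224 and 1.50 for miR-3584-5p, against 6.21 for miR-370. The background correction normexp also moved the scaled gap, to 4.07 for miR-370, 3.75 for miR-328a*, 3.98 for miR-652*, 3.21 for miR-139-3p and 3.69 for miR-188, while miR-1224 (6.62) and miR-3584-5p (5.30) moved less. The rank of a miRNA among the 717 of its own array, which no scaling factor changes, was on average better in pancreas than in the next organ for all 7, by 6 places for miR-1224 and 108 for miR-370.

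**Figure D3:**
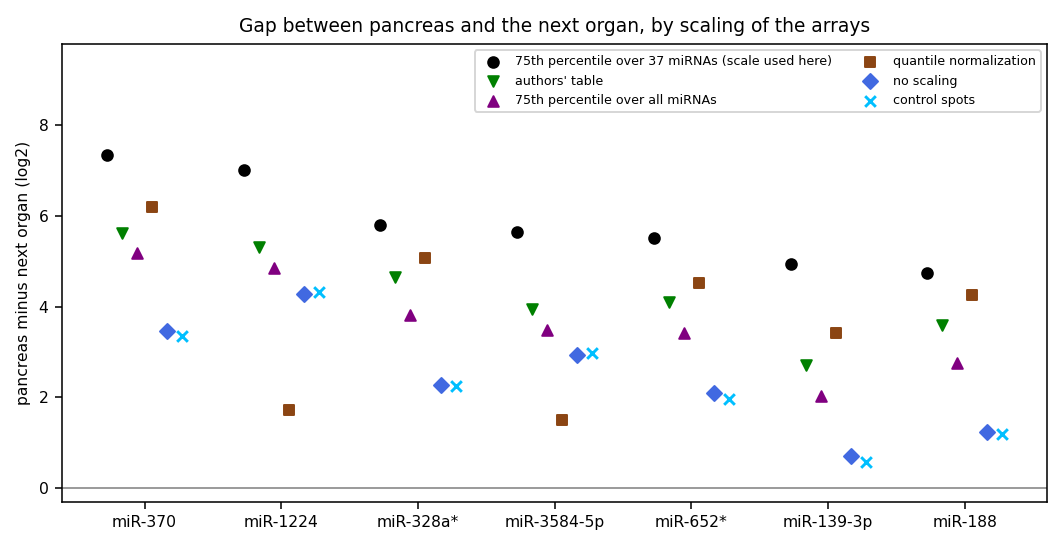
Difference between the mean log2 signal in pancreas (3 arrays) and in the next organ (3 arrays) for each miRNA under 6 ways of scaling the arrays. All points lie above 0. The gap of miR-1224 ranges from 1.73 to 7.02 and that of miR-139-3p from 0.58 to 4.93.

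Leaving out 1 rat moved the gap of 5 members by over 1.5 times. The unscaled values of this kind were also chosen after seeing the data. For miR-1224 it was 3.66 log2 units unscaled and 6.19 scaled without rat 4, and 4.90 and 7.62 without rat 5. For miR-370 the scaled gap was 6.74 without rat 4. For miR-3584-5p the scaled gap was 4.90 without rat 4 and 6.31 without rat 6. For miR-188 it was 0.62 unscaled without rat 4 and 4.14 scaled without rat 6. For miR-139-3p it was 1.73 unscaled without rat 4 and 3.87 scaled without rat 5, beside the unscaled value below 0 given above. The gaps of miR-328a* and miR-652* moved by less than this whichever rat was left out.

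The comparison was also made within slides, each of which held 1 pancreas array and 7 arrays of other organs of the same rat. In 21 of 21 cases (7 members on 3 slides) pancreas had the highest unscaled signal of its slide, a count that the choice of members largely fixes. In 15 of the cases the highest other array of the slide detected the miRNA, and there the ratio of pancreas to it had a median of 17.5. In the other 6, of miR-370, miR-328a* and miR-139-3p, it did not, and no ratio is given. The ratio was lowest, at 2.46, for miR-3584-5p in rat 6, where prostate other lay on the same slide, and highest, at 133.5, for miR-1224 in rat 6. The highest other array of a slide was never from the organ next below pancreas for that member, so these ratios do not measure that gap. For miR-1224 in rat 4, for example, it was colon at 614, while parotid gland of that rat, on another slide, was at 1075.

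The 3 rats did not vary alike for all members. miR-328a*, miR-3584-5p, miR-652* and miR-139-3p had higher unscaled signals in the pancreas of rat 5, by 2.12-fold, 2.05-fold, 1.61-fold and 2.69-fold over rat 4. miR-370 and miR-1224 were lower in rat 5, at 0.644 and 0.502 times the signal of rat 4. miR-188 was at 0.845 times. Unscaled, the ratios of rat 6 over rat 4 ran from 0.795 to 1.13, and these rats were the closest pair for every member except miR-188, where rats 5 and 6 (310 and 309) were closer. Scaled, these ratios ran from 1.41 to 2.00, and rat 5 remained the highest for the same 4 members and the lowest for miR-1224 and miR-370. For miR-652* the scaled signals of rats 5 and 6 (20309 and 18881) lay closer together than those of rats 4 (9450) and 6. Rats 4 and 5 were the closest pair for miR-370, miR-1224 and miR-188 when scaled. There the ratios of rat 5 over rat 4 were 0.859, 0.670 and 1.13, against 1.71, 1.92 and 1.49 for rat 6 over rat 4. With 1 array per rat, differences between rats, slides and scan days cannot be told apart.

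**Figure D4:**
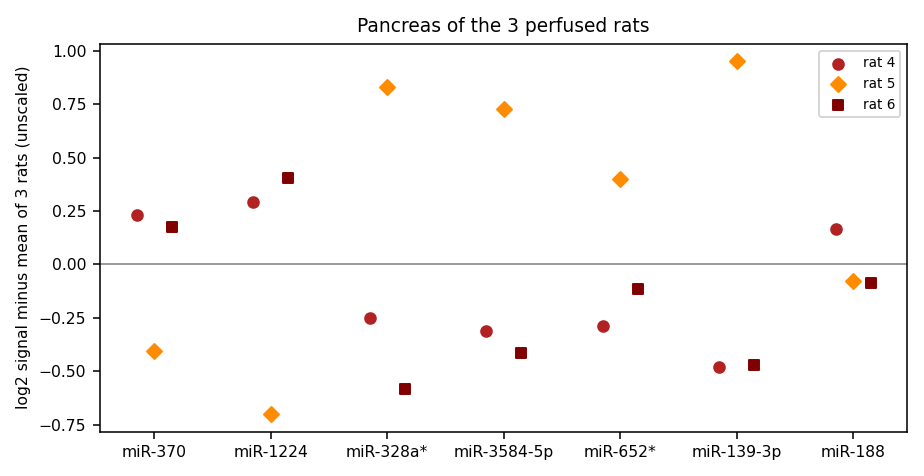
Log2 unscaled signal of each miRNA in the pancreas of rats 4, 5 and 6, minus the mean of the 3. Rat 5 (diamonds) is highest for miR-328a*, miR-3584-5p, miR-652* and miR-139-3p, by up to 0.95 log2 units, and lowest for miR-370 and miR-1224, by up to 0.70.

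Each member was measured by 2 probe sequences, 14 in all, and all 14 were detected on the 3 pancreas arrays. On each of them alone, pancreas remained the highest organ, which the choice of members also largely fixes. The probes of miR-370, miR-328a*, miR-3584-5p and miR-188 gave nearly equal signals in pancreas, with the brighter 1.05 to 1.08 times the dimmer. Those of miR-1224 differed 3.94-fold, those of miR-652* 4.59-fold and those of miR-139-3p 14.4-fold.

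For miR-652* the ratio between the probes was itself higher in pancreas. On the log2 scale, brighter over dimmer, it was 2.49, 1.88 and 2.46 in rats 4, 5 and 6, above the highest of the 153 other arrays on which both probes were detected (lowest -0.10, median 0.14, highest 1.20). On the dimmer probe the unscaled gap of miR-652* was 0.89 log2 units and on the brighter 2.53. For miR-1224 the ratio in pancreas, 1.94, 1.91 and 2.05, lay within the range of the arrays of other organs (1.01 to 2.17). For miR-139-3p it was 3.83, 3.83 and 3.89, also above the other arrays with both probes detected (3.32 to 3.55), but these were 3 in number, since the dimmer probe was detected on 3 arrays of other organs against 142 for the brighter. For miR-370 it was low in pancreas, at 0.033, 0.12 and 0.080, against 0.091 to 1.44 (median 0.77) on 20 other arrays. For miR-328a* it was 0.14, 0.069 and 0.18, within the range of 39 other arrays (0.019 to 1.50) but below their median of 0.61.

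The other arm was on the array for 6 of the 7 hairpins, the exception being miR-1224. Of these 6 arms 1, miR-652, was detected on all 3 pancreas arrays, and the other 5 were detected on 0 of 3. Of the 717 miRNAs of the array, 11.4% were detected on all 3 pancreas arrays and 83.5% on 0, so these counts are no mark of the other arms. miR-370* was detected on 0 arrays of perfused rats and miR-3584-3p on 1, of lymph node - mesenteric, so that neither passed the filter on dim miRNAs. miR-188* was detected on 10 arrays of other organs and highest in thymus. miR-139-5p was detected on 44, with 216 ± 253 (SD, n = 3) in cerebrum hippocampus, where 1 array was at 508, 183.5 ± 64.6 in bladder and 157 ± 40.1 in cerebrum cerebral cortex.

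miR-328a, the arm opposite miR-328a*, was detected on 146 arrays of other organs and on 0 of 3 in pancreas. It was highest in the brain, with 537 ± 180 (SD, n = 3) in cerebellum and 349 ± 59.8 in cerebrum Thalamus. miR-328a* was not: its highest organs after pancreas were cecum and ileum. miR-652 was detected on every array of the other organs and was highest in Harderian gland, at 2374 ± 111 (SD, n = 3). In pancreas it had 13.8, 12.3 and 17.2, the lowest of the 55 organs on the unscaled scale and the eighth of the order when scaled.

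Tests of the other arms against the mean of the other 54 organs depended on the scaling. Limma called 303 of 345 miRNAs different in pancreas when scaled (87.8%), with 41.2% higher and 46.7% lower. Unscaled it called 287 (83.2%), with 11% higher and 72.2% lower. A call was therefore no mark of the other arms. miR-652 was 0.66 log2 units higher in pancreas when scaled (SE 0.13, limma's adjusted p = 2.33e-06) and fell by 3.63 unscaled (SE 0.23, limma's adjusted p = 1.25e-29). The 3 further arms in the fit were detected on 0 of 3 pancreas arrays. Their tests set other organs against the floor or against signals not above background, so the tests give no size of a change. miR-328a lay at the floor in pancreas when unscaled (3.18 on the log2 scale), against a mean log2 signal of 5.58 over the other organs (limma's adjusted p = 1.7e-19), and did not pass when scaled (limma's adjusted p = 0.528). miR-139-5p, at the floor in pancreas on both scales and not detected on most arrays of other organs, passed as lower in pancreas (limma's adjusted p = 0.00284 scaled and 0.00183 unscaled), but not with a floor 4 times as high (limma's adjusted p = 0.536). With normexp it passed as higher in pancreas instead (limma's adjusted p = 2.48e-16). miR-188* did not pass on either scale (limma's adjusted p = 0.894 scaled and 0.522 unscaled), but it passed as higher in pancreas in the authors' table (limma's adjusted p = 0.0117) and with normexp (limma's adjusted p = 1.73e-18). Normexp here adds 50 to each signal before scaling, so for arms not detected in pancreas its values depend on the scaling factor. These calls with normexp are not read as a difference.

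The ratio of miR-652* to miR-652 on the same array needs no scaling. It was 5.29, 6.14 and 5.14 on the log2 scale in the pancreas of rats 4, 5 and 6. On the 153 other arrays with both arms detected it ran from -5.78 to 1.78 with a median of -2.46. Esophagus (mean 1.04), duodenum (0.64) and liver (0.36) followed pancreas, and Harderian gland (-5.66) was the lowest. Because miR-652* was chosen for its level in pancreas, this is a description. The ratio compares different probe designs, so its zero has no meaning, and its size depended on the probe of miR-652*. With the dimmer probe alone it was 3.56, 4.91 and 3.44 in pancreas, against at most 1.37 elsewhere, and with the brighter 6.05, 6.79 and 5.90, again above every other array.

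**Figure D5:**
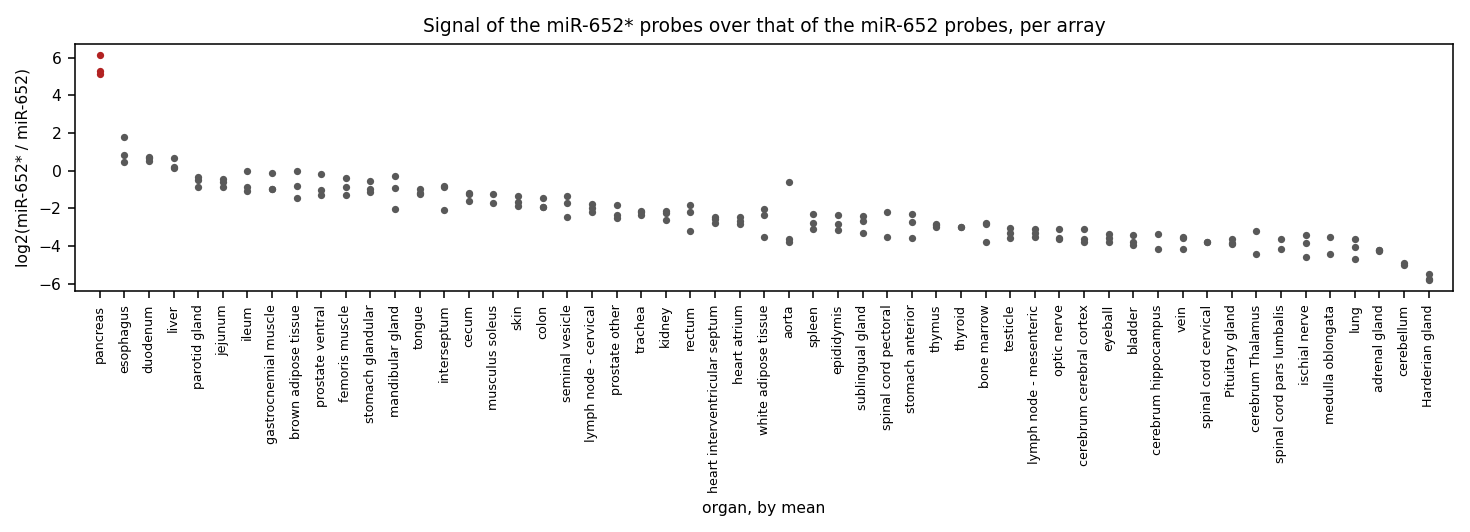
Log2 ratio of the miR-652* signal to the miR-652 signal on each perfused array where both were detected, with organs ordered by their mean. The 3 pancreas arrays (red) lie at 5.14 to 6.14, and the highest of the 153 others, of esophagus, lies at 1.78. Both probes of miR-652* are averaged, and the dimmer alone gives 3.44 to 4.91 in pancreas.

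The members also varied among the remaining 54 organs. The choice of members used the level of the organ next below pancreas, so these values are a description, without a test. The limma F test called 333 of 335 miRNAs (99.4%) different among the 54 organs, and nothing is read from a call of a member. Limma's F ran from 4.44 for miR-370 to 26.4 for miR-188 when scaled and from 4.18 to 16.0 for the same members when not. The order of the members between them moved with the scaling: miR-652* had 23.1 scaled, above miR-3584-5p (12.7), and 7.50 unscaled, below it. For miR-1224, at 8.08 scaled, F was 24.2 without rat 6 and 3.83 without rat 5. For miR-370 it was 8.23 without rat 4 and 2.03 without rat 5. Without rat 5, F fell from 12.7 to 6.51 for miR-3584-5p and from 14.2 to 8.31 for miR-328a*. Without rat 6 it fell from 11.1 to 5.32 for miR-139-3p.

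Over these 54 organs the members did not form 1 pattern. Among their 21 pairs the Pearson correlation of mean log2 signals ran from 0.07 (miR-370 with miR-652*) to 0.94 (miR-328a* with miR-188), with a median of 0.59. Unscaled, the same 2 pairs gave -0.25 and 0.87, with a median of 0.40. These values describe 54 points that share rats and slides. When scaled they also share 1 factor per array: the scaled levels of miR-1224 and miR-652* had correlations of -0.76 and -0.75 with the reference level of the arrays, and the unscaled levels -0.25 and -0.14.

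The miRNAs outside the 7 with the organ patterns most like them, over the 54 organs and with scaled values, were as follows. For miR-188 they were miR-211* (r = 0.94), miR-483* (0.93) and miR-3593-3p (0.89). For miR-328a* they were miR-483* (0.93), miR-211* (0.90) and miR-327 (0.86). miR-188 and miR-328a* thus shared 2 of their 3 nearest miRNAs.

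For miR-1224 the nearest were miR-494_v15.0 (r = 0.89), miR-494 (0.85) and miR-466b (0.85). For miR-652* they were miR-290 (0.87), miR-3573-3p (0.80) and miR-19b (0.79). Likeness was lower for the other 3 members. miR-370 was nearest to miR-493 (0.73), miR-125a-3p (0.71) and miR-874 (0.66). miR-139-3p was nearest to miR-327 (0.70), miR-125a-3p (0.60) and miR-3549 (0.59). miR-3584-5p was nearest to miR-200b* (0.69), miR-494 (0.68) and miR-30b-3p (0.65).

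With pancreas included, the correlations rest in part on the pancreas levels by which the members were chosen. For miR-370 and miR-874, r was 0.97 with pancreas and 0.66 without it. Over all 55 organs the nearest by scaled values were miR-874, miR-678 and miR-216a for miR-370 (r = 0.97, 0.96 and 0.96), miR-494_v15.0, miR-466b and miR-494 for miR-1224 (0.94, 0.94 and 0.92), and miR-211*, miR-3593-3p and miR-150* for miR-188 (0.96, 0.94 and 0.93). They were miR-211*, miR-327 and miR-150* for miR-328a* (0.93, 0.92 and 0.91), and miR-290, miR-3573-3p and miR-3085 for miR-652* (0.91, 0.90 and 0.86). For miR-139-3p they were miR-125a-3p, miR-3562 and miR-1249 (0.89, 0.87 and 0.86), and for miR-3584-5p miR-494, miR-30b-3p and miR-200b* (0.81, 0.80 and 0.79).

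The nearest miRNAs depended on the scale. Between scaled and unscaled values over the 54 organs, miR-188 shared 3 of its 3 nearest, miR-1224 and miR-328a* 2, miR-652* and miR-139-3p 1, and miR-370 and miR-3584-5p 0. For miR-370 the unscaled nearest were miR-7b (0.79), miR-369-3p (0.78) and miR-7a-2* (0.76). Over all 55 organs they were miR-216a (0.93), miR-217 (0.91) and miR-874 (0.90).

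Perfused and not perfused rats were compared in the 5 organs taken in both ways. Pancreas was not among them, so blood left in pancreas was not tested. In these organs miR-370, miR-328a* and miR-188 were detected on 0 of 30 arrays. miR-139-3p was detected on 3 of them, with its signal at the floor on each. miR-1224 and miR-652* were detected on all 30, and miR-3584-5p on 11.

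In each of these 5 organs limma called 0 of 191 miRNAs for the sampling condition (0%), with 3 to 12 miRNAs per organ at an unadjusted p under 0.05. The paper reports the blood-cell miRNAs miR-451 and miR-144 as evident without perfusion but not with it. The fit called neither, so 0 calls are no measure of the blood left in an organ. For the 3 members in the fit the adjusted p was 0.843 or more in every organ, and the perfused and not perfused rats overlapped in every organ. miR-1224 had log2 differences, perfused minus not perfused, from -0.12 in kidney to 0.20 in septum (SE 0.19). miR-652* had its widest difference in liver, where the scaled signals were 219, 173 and 197 in rats 1, 2 and 3 and 119, 140 and 191 in rats 4, 5 and 6. There it was -0.41 log2 units (SE 0.25, limma's adjusted p = 0.843).

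miR-3584-5p was uneven in the heart. In the atrium of not perfused rats 1, 2 and 3 its scaled signals were 10.8, 203.5 and 29.5, and in that of perfused rats 4, 5 and 6 they were 24.6, 10.8 and 10.8, where 10.8 is the floor. In the septum they were 10.8, 92.0 and 52.4 without perfusion and at the floor on all 3 arrays with it. With most perfused arrays at the floor no size of a difference is given, and neither organ passed the test (limma's adjusted p = 1 in both). Perfused and not perfused rats lay on different slides apart from 1 slide, which held the septum of rats 3 and 4, with miR-3584-5p at 52.4 and 10.8, miR-1224 at 84.7 and 95.1, and miR-652* at 11.7 and 19.3.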

How the data were processed

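The deposited output of the scanner software (Agilent Feature Extraction 10.7.3, per the labels) holds a background-corrected signal intensity per spot, and the authors' table holds a normalized intensity per miRNA. Their normalization amounts to 1 multiplication per array, by 0.411 to 10.46. Here spots were averaged, without outliers, by probe sequence and then by miRNA. For the scaled values each array was divided by its 75th percentile among the 37 miRNAs that every array detected and multiplied by 2118. A floor of 10.8 (9.07 unscaled) was applied before log2. Detection required that more than 50% of a miRNA's spots be called well above background by the scanner software. Detected miRNAs numbered 86 to 244 per array, and the number of arrays limits the precision.

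Limma 3.58.1 was fitted with 1 term per organ or group on miRNAs with detection in a whole group of 3 arrays, with p adjusted by Benjamini-Hochberg, and was tested on simulated data. Arrays with the same rat number come from 1 rat, and the alternatives include a replicate block. The members, lists and tests were chosen with earlier results of these data known. Named besides the members were their other arms and versions, the 5 miRNAs outside the 7 with the largest gaps, the 3 nearest in pattern, and marker miRNAs. miR-125a-3p, miR-134, miR-494_v15.0 and miR-1188-5p were added as neighbours of the smallest gap. The files name 8 arrays with 2 rat numbers, and the title's was used. The background correction normexp used the median signal of each spot and added an offset of 50 before scaling, and no floor was applied to its values.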

Additional observations from a re-analysis of the deposited data

How the results depend on the processing

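Pancreas was the highest organ for 7 of 7 members in 17 of 18 alternatives, a count that the choice of members largely fixes. Adding the not perfused arrays, or leaving out the 8 arrays with 2 rat numbers, left each gap unchanged. Unscaled and without rat 5, a setting added after seeing the data, the number was 6, with miR-139-3p at -0.086 log2 units. Of the other arms, miR-652 turned direction with the scaling. It was at -3.63 with no scaling, -3.64 with control spots, -2.01 with the percentile over all miRNAs, -1.34 with quantile normalization and -1.29 in the authors' table, but at 1.78 with normexp and 0.36 without rat 6. The others were not detected in pancreas, so that the floor sets the sign of their unscaled differences, and the authors' table holds the same values for all of them there (0.66, 0.69 and 1.05 in rats 4, 5 and 6), which their differences in that table measure. The values that follow are therefore fitted values and not sizes of a change. miR-328a was at -2.40, -2.40, -2.18, -2.19 and -6.92 under the same 5 settings, at -0.10 with a floor 4 times as high and at 2.59 with normexp (limma's adjusted p = 1.55e-15). miR-188* was at -0.082, -0.078, -0.083 and -0.085 under the first 4 of them, at 1.65 in the authors' table, at 3.50 with normexp, at -0.014 with the higher floor and from -0.12 (without rat 5) to 0.087 with 1 rat left out. miR-139-5p was at 3.18 with normexp, a background correction that adds 50 to each signal before scaling (limma's adjusted p = 2.48e-16). Its call as lower was lost with the higher floor (-0.097, limma's adjusted p = 0.536). The cause was not tested.

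The number of perfusion calls, 0 of 955, was 1 with no scaling, 1 with the percentile over all miRNAs, 4 with control spots, 4 with no filter, 5 in the authors' table, 5 with the higher floor, 7 with quantile normalization, and 0 to 6 with 1 rat left out. With rats as a replicate block it was 1, and the counts in pancreas (303) and over the 54 organs (333) were unchanged. Among the members 2 calls appeared over all settings: miR-652* in liver with the higher floor (-0.41, limma's adjusted p = 0.0224) and miR-3584-5p in septum without rat 1 (with a limma adjusted p of 0.02). The latter was 0.30 on the normalized values of the authors. Counts in pancreas ran from 252 to 423 and over the 54 organs from 299 to 411. Dim signals and 3 arrays per group limit every value near the floor.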
